A study of Mus musculus with 17 samples.

Results

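The angiopoietin and Tie receptor axis was followed through 17 bone marrow endothelial RNA-seq libraries as 5 genes of the 49585 in the count tables: the ligands Angpt1 and Angpt2, the receptors Tek (Tie2) and Tie1, and Ptprb, which encodes the vascular endothelial phosphatase VE-PTP. The genes were chosen by family, and the set was chosen with results on these libraries known: Angpt2 had the smallest p-value among the genes higher in KO at 4 weeks. The 4-week difference between genotypes is therefore given for all 5 genes as a description without a test.

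The mice were WT, or KO for Eng (endoglin, a co-receptor for BMP9 and BMP10 on endothelium). In the KO line, CreERT2 under the Cdh5 promoter, which is active in endothelial cells, recombines floxed exons 5 and 6 of Eng. All mice of both genotypes received tamoxifen, beginning at 8 weeks of age, and marrow was taken 2 or 4 weeks later; which alleles the WT mice carried is not given in the sources used here. There were 4 WT and 4 KO libraries at 2 weeks, each genotype with 2 female and 2 male libraries. The later time point has 5 WT libraries, of which 2 are female, and 4 KO libraries, of which 1 is female. Libraries carry the names the labels give them, with f for female and m for male. The sorted cells were CD31+, CD45- and Ter119-; the extraction protocol adds Sca1+, which the series' design text does not. Nothing in the labels says whether a library is 1 mouse, so p-values measure only the spread between these libraries.

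Angiopoietin 1 is made mostly by perivascular and stromal cells and activates Tie2 on endothelium, where the receptor signals through AKT and keeps vessels quiescent. Angiopoietin 2 is made by endothelial cells, is stored in Weibel-Palade bodies, and acts as a partial agonist or an antagonist of Tie2 depending on context. Tie1 has no well-established ligand of its own and modulates Tie2, and VE-PTP removes phosphate from Tie2 and from VE-cadherin.

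The 250 bases before the start site of Tek are shown because Tek varied most among the receptors between libraries. The sequence is from RefSeq on GRCm38.p6, 5′ to 3′ on the plus strand, at chr4:94739039-94739288, and ends at the base before the annotated start of the gene. Capitals mark a match to the KLF letters CACCC.
Tek: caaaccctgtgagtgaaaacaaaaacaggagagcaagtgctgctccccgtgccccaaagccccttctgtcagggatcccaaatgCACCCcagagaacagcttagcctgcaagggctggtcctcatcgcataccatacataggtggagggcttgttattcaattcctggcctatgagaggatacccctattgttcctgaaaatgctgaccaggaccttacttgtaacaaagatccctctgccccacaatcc

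The search covered exact matches on both strands. CACCC had 1 match, and 52.0% of the 32851 windows of this length in the table hold it. There were 0 matches to the ETS letters AGGAAG (29.5% of windows), the FOXO letters TGTTTAC (3.17%), the GATA letters AGATAA (9.99%), and the SMAD letters GGCGCC (9.59%) and CAGAC (42.2%). This describes the letters in this window and says nothing of binding. The table matched 2 of the 5 genes, Tek and Tie1; the Tie1 window is not shown, because RefSeq and the gene annotation used here place the start of Tie1 differently.

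Library totals were 26705337 to 40882715 counts at 2 weeks and 20477400 to 33726630 at 4 weeks. The time points differed in quality measures: 10886 to 13583 genes had a count at 2 weeks and 15996 to 21235 at 4 weeks, while the mitochondrial share of counts was 22.2 to 29.5% and 4.66 to 8.99%. Levels are CPM, counts scaled by the library total. The endothelial markers Pecam1, Cdh5, Kdr, Flt1, Emcn, Esam and Cldn5 summed to 4112 ± 432 CPM for WT (n = 4, SD) against 3453 ± 329 for KO (n = 4, SD) at 2 weeks, and to 9912 ± 754 for WT (n = 5, SD) against 9218 ± 839 for KO (n = 4, SD) at 4 weeks. In sorted bulk RNA, fewer cells of a type and less RNA per cell cannot be told apart.

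Eng itself was at 705 to 1307 CPM in the WT libraries at 2 weeks and 225 to 347 in KO, and at 2400 to 2735 in WT against 274 to 1647 in KO at 4 weeks. The genotypes did not overlap at either time. KO m2 at 4 weeks kept 63.7% of the WT mean of Eng, while the other KO libraries of that time kept 10.6 to 33.8%. Counts cover the whole gene, so exons outside the deletion can still contribute, and Eng overlaps Fpgs on the other strand.

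Angpt1 (ENSMUSG00000022309, chromosome 15, 42424723 to 42676977, minus strand) was close to absent from the sorted cells. It had 45 counts in WT f (1.33 CPM) and 11 counts in WT m3 (0.449 CPM) at 4 weeks, 1 count in KO m3 at 2 weeks, and 0 in the other 14 libraries. A count of 0 allows up to 3 counts, which is 0.0734 to 0.112 CPM at 2 weeks and 0.0890 to 0.147 CPM at 4 weeks; these limits cover counting error only. Angpt1 did not pass the filter on low counts and entered no fit, and the 2 libraries with counts do not separate the genotypes. An exon of Angpt1 overlaps Gm17473 on the other strand, and whether the counting used strand is not given in the sources used here. The 9 marrow stromal cell markers, which include Cxcl12 and Kitl that endothelium also expresses, summed to 1466 to 1954 CPM in WT against 1134 to 1520 in KO 2 weeks after tamoxifen. Their sums 4 weeks after tamoxifen were 1562 to 3602 CPM for WT and 1149 to 3319 for KO. Lepr, which marks the stromal cells more narrowly, was at 17.8 to 62.6 CPM in WT against 14.8 to 41.4 in KO at that time. Earlier it was uneven, at 0.0790 to 12.0 CPM in WT against 0.0749 to 42.6 in KO, with 3 counts or fewer in WT f1 and KO f1. The part of stromal RNA in the level of Angpt1 was not tested.

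Angpt2 (ENSMUSG00000031465, chromosome 8, 18690263 to 18741562, minus strand) was the member that differed most between genotypes at 4 weeks, where it was chosen. The WT libraries f, f3, m1, m2 and m3 had 62.0, 61.4, 59.5, 28.5 and 61.4 CPM. The KO libraries f2, m1, m2 and m3 had 119.7, 174, 192 and 132 CPM. Every KO library lay above every WT library, and 4 of the 5 WT libraries sat within 3 CPM of each other, with m2 below them. The means were 54.6 ± 14.6 CPM for WT (n = 5, SD) against 154 ± 34.0 for KO (n = 4, SD), a 2.83-fold difference. The fitted log2 fold change was 1.52 (SE 0.273). Of the 15209 genes fitted at 4 weeks, 101 (0.664%) had every KO library above every WT library and 0 (0%) passed an adjusted p of 0.05 in edgeR; as the rule used this contrast, nothing is read from Angpt2's place among them. At unadjusted p under 0.05 there were 422 genes, DESeq2 called 17 and limma voom 0.

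Among the KO libraries at 4 weeks, Angpt2 was not highest where Eng was lowest. KO m2, with the most Eng of the KO libraries (1647 CPM), had the highest Angpt2 (192 CPM). KO m3, with the least Eng (274 CPM), had 132 CPM of Angpt2, and KO m1, with 322 CPM of Eng, had 174. With 4 libraries no relation was tested.

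At 2 weeks Angpt2 was low in WT and scattered in KO. WT f1 had 0 counts, and f4, m2 and m3 had 2.94, 2.79 and 3.34 CPM (120, 91 and 126 counts). KO f1 had 69.2 CPM and KO m3 23.3 CPM, while KO f4 had 0 counts and KO m2 0.269 CPM (8 counts). The genotypes overlapped, with 2 of 4 KO libraries above all WT libraries, 1 female and 1 male, and the other KO libraries, at 0 and 0.269 CPM, within the range of WT. The means were 2.27 ± 1.53 CPM for WT (n = 4, SD) against 23.2 ± 32.6 for KO (n = 4, SD). The log2 fold change was 3.27 (SE 2.91), with an adjusted p of 1 in edgeR's quasi-likelihood test with Benjamini-Hochberg adjustment. On mean log2 CPM with a prior count of 2 the difference was 1.10, and a two-sided exact permutation test had p = 0.743, where the smallest p that 4 against 4 libraries allow is 0.0286. The direction turned without KO f1 (−0.52) and without WT f1 (−0.37) on that scale, and without KO m3 the difference was 0.0016, so it rests on those 3 libraries.

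Other genes of this abundance were also near 0 in single 2-week libraries. Of 1563 other genes whose mean at 4 weeks lay within 1.5-fold of that of Angpt2 (98.9 CPM), 257 (16.4%) had 3 counts or fewer in at least 1 library at 2 weeks. The share of these genes at 3 counts or fewer ran from 0.384 to 6.40% across the 2-week libraries. Apln, a tip cell gene often found with Angpt2 in sprouting endothelium, was at 150.1, 73.2, 55.5 and 119.5 CPM in KO f1, f4, m2 and m3 at 2 weeks, and at 0, 5.31, 65.9 and 24.6 CPM in WT f1, f4, m2 and m3. Esm1, another tip cell gene, was at 55.8 and 71.9 CPM in KO f1 and m3 and at 0.383 and 8.25 CPM in KO f4 and m2. Both genes were chosen from 7 tip or activated endothelium markers after their values were seen. The other markers at 2 weeks had means of 2.26 CPM for WT and 5.47 for KO (Kcne3), 0 and 4.07 (Pgf), 73.5 and 96.8 (Dll4), 1.08 and 2.03 (Cxcr4), and 52.3 and 26.6 (Nid2). Among the KO libraries Dll4 was lowest in KO f1 (67.4 CPM), which had the most Angpt2, and Pgf and Cxcr4 were highest in KO m2. The summed level of neutrophil markers was 107 and 3150 CPM in KO f1 and m3, and 238 and 4104 CPM in KO f4 and m2; its part in these levels was not tested.

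**Figure D1:**
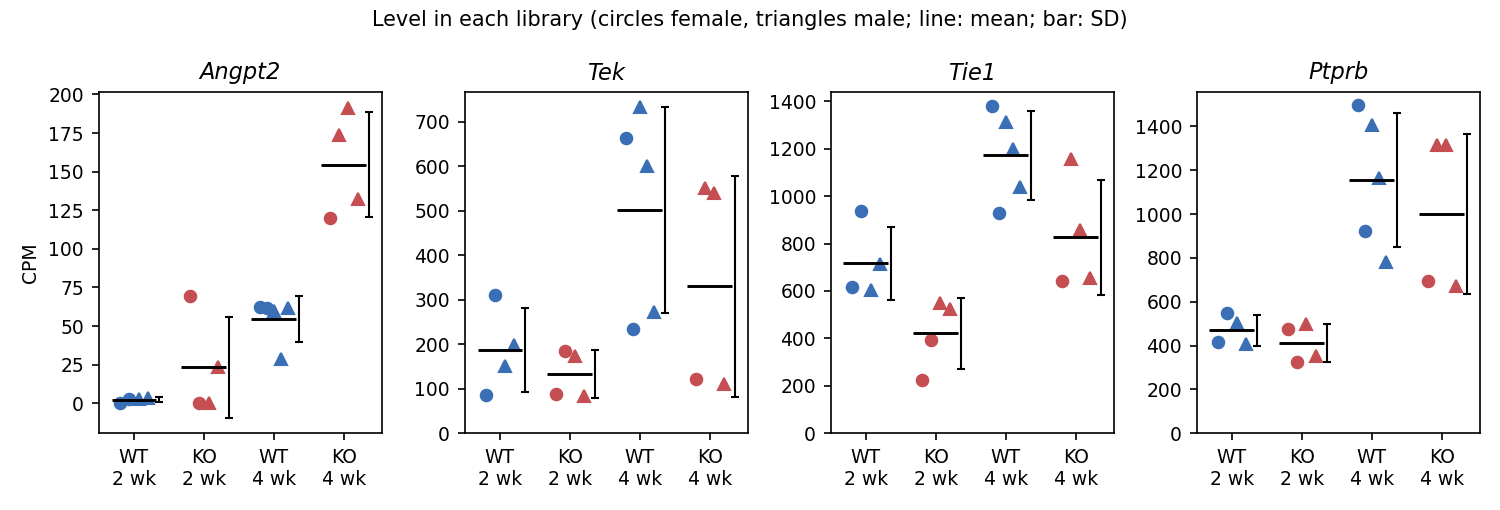
Level of the 4 detected members in CPM (vertical axis, linear) in each library, by genotype and time (horizontal axis). Circles are females, triangles males, black lines group means and bars the SD. Angpt2 in the 4 KO libraries at 4 weeks lies at 119.7 to 192 CPM, above every WT library, and Tie1 in KO at 2 weeks lies at 223 to 549.8 CPM, below every WT library.

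Tie1 (ENSMUSG00000033191, chromosome 4, 118471191 to 118490061, minus strand), the receptor that modulates Tie2, was lower in every KO library than in every WT library at 2 weeks. WT f1, f4, m2 and m3 had 616, 936, 602 and 714 CPM. KO f1, f4, m2 and m3 had 223, 392, 549.8 and 522 CPM. The KO females were the lowest 2 of the 8 libraries, and the highest KO library was below the lowest WT library. The means were 717 ± 154 CPM for WT (n = 4, SD) against 422 ± 149 for KO (n = 4, SD), so that KO had 0.589 of the WT level. The log2 fold change was −0.81 (SE 0.309), with an unadjusted p of 0.0350 and an adjusted p of 1 in edgeR's quasi-likelihood test, so the difference did not pass the threshold over all genes. By two-sided exact permutation p was 0.0286, the smallest the design allows, and 0.200 after Benjamini-Hochberg adjustment over 7 values (4 genes and 3 ratios). Without any of WT f1, f4, m2 or m3 the exact permutation p was 0.0857. Of 10477 genes fitted at 2 weeks, 186 (1.78%) had every KO library below every WT library, and 0 (0%) passed the adjusted threshold in edgeR; 276 had an unadjusted p under 0.05, DESeq2 called 149 and limma voom 12.

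The 2-week libraries also differed in other cell types. Summed neutrophil markers reached 3150 and 4104 CPM in KO m3 and m2 against 22.6 to 110.0 CPM in WT, and summed erythroid markers were 278 to 1240 CPM in KO against 61.4 to 179.6 in WT. Without KO m2 and m3 the log2 fold change of Tie1 was −1.35 (SE 0.386); these 2 libraries had the highest Tie1 of the KO libraries, and only females remain in KO. The part of these cells in the difference was not tested. Relative to the summed counts of the 7 endothelial markers, Tie1 was 15.9 to 19.8% in WT and 5.80 to 15.8% in KO, still without overlap (log2 difference −0.57, exact permutation p = 0.0286). This scale was chosen after the data were seen.

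At 4 weeks Tie1 was at 1382, 930.4, 1311, 1197 and 1040.4 CPM in WT f, f3, m1, m2 and m3. KO f2, m1, m2 and m3 had 641, 1158, 856 and 653 CPM. KO m1 lay among the WT values and the other 3 KO libraries lay below all of them. The means were 1172 ± 187 CPM for WT (n = 5, SD) against 827 ± 242 for KO (n = 4, SD), with a log2 fold change of −0.52 (SE 0.188), given without a test. The KO difference at 4 weeks less that at 2 weeks was 0.22 (SE 0.355), which is smaller than its error.

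Tek (ENSMUSG00000006386, chromosome 4, 94739289 to 94874976, plus strand), the angiopoietin receptor Tie2, varied more within each genotype than between them. At 2 weeks WT f1, f4, m2 and m3 had 85.4, 310.3, 151 and 197 CPM. KO f1, f4, m2 and m3 had 88.8, 186, 173 and 84.1 CPM. The genotypes overlapped. The means were 186 ± 94.7 CPM for WT (n = 4, SD) against 133 ± 53.8 for KO (n = 4, SD), and the log2 fold change was −0.48 (SE 0.465) with an adjusted p of 1 in edgeR and p = 0.457 in the exact permutation test. Without WT f4 it was −0.02 in edgeR, so the size of that value rests on this library. The 2 KO libraries high in Angpt2, f1 and m3, were the lowest 2 of the KO libraries in Tek.

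At 4 weeks Tek was at 663, 235, 734, 600.2 and 272 CPM in WT f, f3, m1, m2 and m3. KO f2, m1, m2 and m3 had 121, 551, 539 and 109.6 CPM. Levels thus lay in a high and a low band within both genotypes. The means were 501 ± 231 CPM for WT (n = 5, SD) against 330 ± 248 for KO (n = 4, SD), with a log2 fold change of −0.81 (SE 0.576). That value ran from −1.11 without WT m3 to −0.42 without KO f2, and was −0.42 in males alone.

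The bands of Tek followed a pattern that ran through the transcriptome. The first principal component of the 4-week libraries, taken over 6920 genes of a mean log2 CPM of at least 4 without the members, held 39.0% of the variance and placed WT f, m1 and m2 with KO m1 and m2 (set A) and WT f3 and m3 with KO f2 and m3 (set B). These sets come from the data, after they were seen, and are not groups of the study; each set holds both genotypes and both sexes. In set A, Tek was 600.2 to 734 CPM in 3 WT libraries and 539 to 551 in 2 KO libraries. In set B it was 235 to 272 CPM in 2 WT libraries and 109.6 to 121 in 2 KO libraries. Within each set every KO library was below every WT library, at 0.818 of the WT mean in set A and 0.455 in set B. With so few libraries such an order is common: of 15209 genes it held for 1332 (8.76%) in set A, 2824 (18.6%) in set B and 261 (1.72%) in both. With a term for the set in place of sex, the log2 fold change was −0.67 (SE 0.168). The sets were formed after the bands of Tek were seen and separate them, so the smaller error follows from the choice of the term.

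Tie1 showed the same order within the sets. It was 1197 to 1382 CPM in WT against 856 to 1158 in KO in set A, and 930.4 to 1040.4 CPM in WT against 641 to 653 in KO in set B. KO had 0.776 of the WT mean in set A and 0.657 in set B, and with the term for the set the log2 fold change was −0.47 (SE 0.108). KO m1, the library that lay among the WT values of all 5, was below every WT library of its own set. As for Tek, the sets were formed from these libraries after their values were seen. The order of Tie1 within them and its smaller error are therefore descriptions and add no support to its difference at 4 weeks. Angpt2 in WT overlapped between the sets, at 28.5 to 62.0 CPM in set A and 61.4 in both libraries of set B. Its KO libraries did not overlap between the sets, with 174 to 192 CPM in set A and 119.7 to 132 in set B, which is 3.66 and 2.05 times the WT mean.

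Other measures moved with the sets, and their part in the members' levels was not tested. Kdr, the main VEGF receptor, was at 1646 to 2179 CPM in set A and 416 to 626 in set B over both genotypes. Summed erythroid markers were 165 to 281 CPM in the WT libraries of set A and 1104 to 1272 in those of set B; in KO they were 611 and 2893 CPM in set A (m1 and m2) and 2429 and 1405 in set B (f2 and m3). The 1728 genes with the longest merged exons (at least 6772 bases) had a median log2 ratio of set A to set B of 0.26, and the 1728 with the shortest (up to 2694 bases) of −0.26. Library totals were 25540810 to 33726630 counts in set A and 20477400 to 26967527 in set B.

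**Figure D2:**
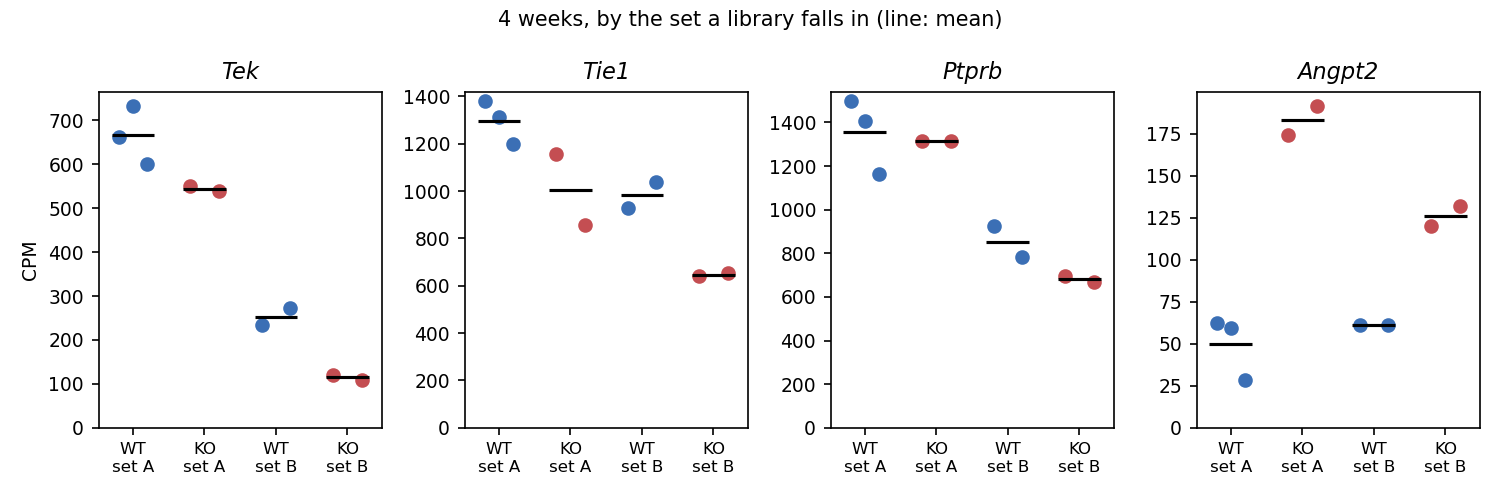
Level in CPM (vertical axis, linear from 0) of Tek, Tie1, Ptprb and Angpt2 in each 4-week library, by genotype and by the set a library falls in on the first principal component of other genes. Points are libraries and lines are means; Tek lies at 539 to 734 CPM in set A and 109.6 to 272 in set B, and KO lies below WT in each set.

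Ptprb (ENSMUSG00000020154, chromosome 10, 116275523 to 116389535, plus strand), the phosphatase that acts on Tie2, had the smallest fitted difference between genotypes of the 4 detected members at both times. At 2 weeks WT f1, f4, m2 and m3 had 418, 549.7, 503 and 405 CPM. KO f1, f4, m2 and m3 had 477, 324, 497 and 354 CPM. The values overlapped, with 2 KO libraries below all WT libraries. The means were 469 ± 69.1 CPM for WT (n = 4, SD) against 413 ± 86.9 for KO (n = 4, SD). The log2 fold change was −0.18 (SE 0.171), with an adjusted p of 1 in edgeR and p = 0.314 in the exact permutation test.

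At 4 weeks Ptprb was at 1498, 923, 1408, 1163 and 781 CPM in WT f, f3, m1, m2 and m3, and at 696, 1316, 1313 and 671 CPM in KO f2, m1, m2 and m3. The means were 1155 ± 306 CPM for WT (n = 5, SD) against 999 ± 364 for KO (n = 4, SD), with a log2 fold change of −0.23 (SE 0.275), given without a test. It ran from −0.40 without WT m3 to −0.014 without KO f2, and was −0.022 in males alone. In set A the genotypes overlapped, at 1163 to 1498 CPM in WT against 1313 to 1316 in KO. In set B KO lay below WT, at 671 to 696 against 781 to 923 CPM.

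**Figure D3:**
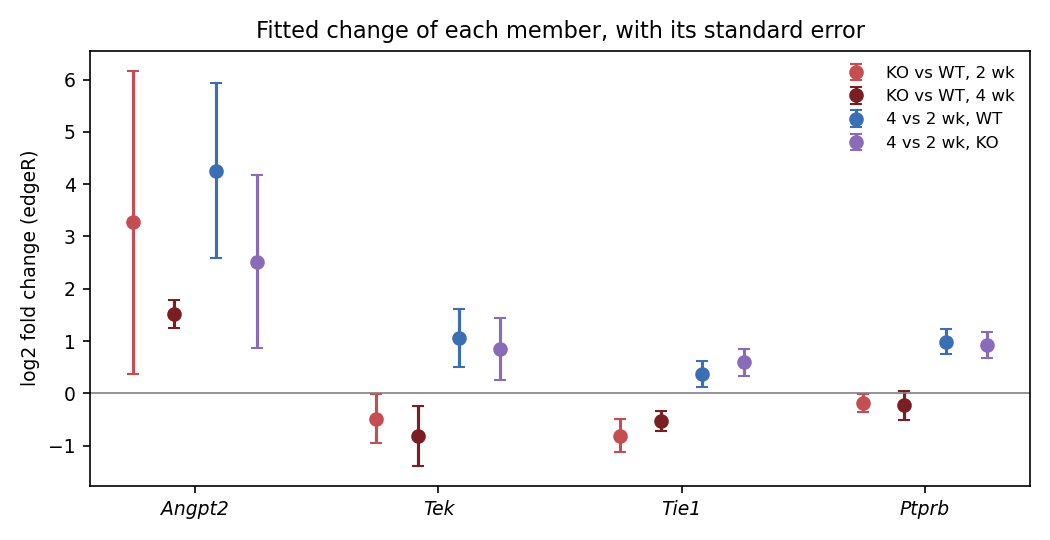
Fitted log2 fold change from edgeR (vertical axis) of the 4 detected members in 4 contrasts (colours), with bars of 1 standard error. The KO against WT values of Tek, Tie1 and Ptprb lie between −0.81 and −0.18, and Angpt2 has 3.27 (SE 2.91) at 2 weeks and 1.52 (SE 0.273) at 4 weeks.

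Levels of different genes were compared per length, as counts per kilobase of merged exons scaled to the same total in each library. In WT at 4 weeks Tie1 was highest at 597 ± 123 (SD, n = 5), followed by Tek at 269 ± 132, Ptprb at 218 ± 67.0 and Angpt2 at 36.7 ± 9.77. In WT at 2 weeks the order was Tie1 at 276 ± 66.1 (SD, n = 4), Tek at 75.0 ± 40.0, Ptprb at 66.5 ± 12.0 and Angpt2 at 1.17 ± 0.783. Tek and Ptprb did not differ beyond their spread: their ratio per library ran from 0.678 to 1.39 in WT at 4 weeks and from 0.626 to 1.73 in WT at 2 weeks. Tie1 exceeded Tek in every library, by 1.71 to 3.80 times in WT and 1.52 to 5.71 times in KO at 4 weeks, and by 2.89 to 6.91 and 2.03 to 5.95 times at 2 weeks. Of genes with a count, Tie1 ranked above 97.1 to 98.8% in the 4-week libraries and Tek above 87.3 to 97.8%.

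The ratio of ligand to receptor transcripts was higher in KO at 4 weeks. Per length, Angpt2 stood at 0.0605 to 0.334 of Tek in WT at 4 weeks and at 0.404 to 1.54 in KO, without overlap; the rule used Angpt2 at this time, so this is a description. At 2 weeks the ratio was 0 to 0.0236 in WT against 0 to 0.995 in KO, and the genotypes overlapped. The ratios among Tie1, Tek and Ptprb at 2 weeks did not pass a test, with log2 differences between KO and WT of −0.39 (Tie1 to Tek, p = 0.400), 0.23 (Ptprb to Tek, p = 0.686) and −0.63 (Tie1 to Ptprb, p = 0.143) in exact permutation tests.

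**Figure D4:**
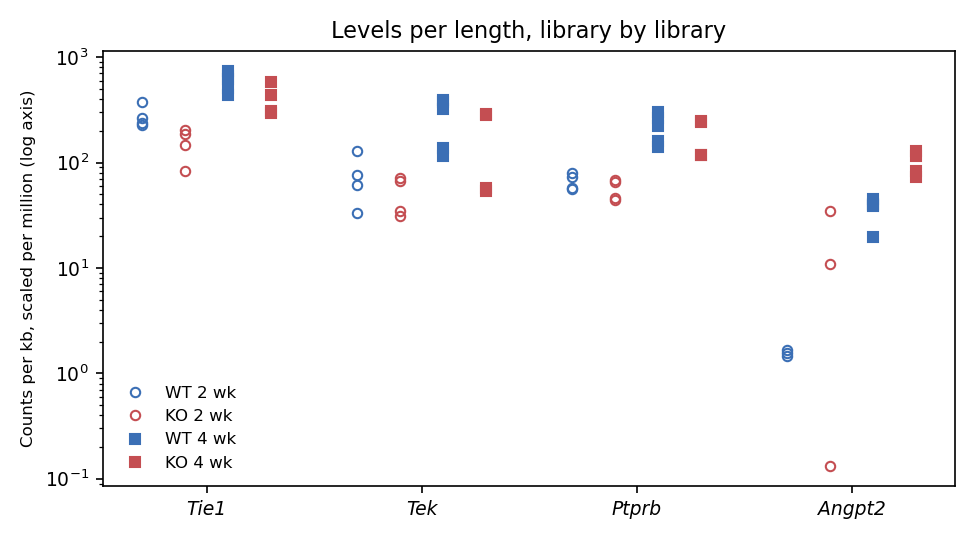
Counts per kilobase of merged exons, scaled to the same total per library (vertical axis, logarithmic), for 4 members (horizontal axis); each mark is a library, open at 2 weeks and filled at 4 weeks. Libraries with 0 counts of Angpt2 (WT f1 and KO f4 at 2 weeks) are not drawn; Tie1 lies above Tek in every library.

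Between 2 and 4 weeks Ptprb rose in both genotypes. In WT its log2 fold change was 0.99 (SE 0.235, adjusted p = 0.0208), and in KO 0.92 (SE 0.249, adjusted p = 0.0377), in edgeR's quasi-likelihood test over all 17 libraries. The 5 WT libraries at 4 weeks (781 to 1498 CPM) all lay above the 4 at 2 weeks (405 to 549.7 CPM), and the 4 KO libraries (671 to 1316 CPM) above those at 2 weeks (324 to 497 CPM). Of 13515 genes fitted, 8.04% passed the threshold in WT and 7.56% in KO. The median gene moved by 0.27 in WT and 0.34 in KO, and the 8 endothelial markers had medians of 1.05 and 1.16, above the values of Ptprb. Relative to the 7 markers other than Eng, Ptprb was 11.4% at 2 weeks and 11.5% at 4 weeks in WT, and 11.9% and 10.7% in KO. The mitochondrial share of counts, given above, was lower at 4 weeks, and its part in the change was not tested. Time and batch cannot be told apart here, and both time contrasts share 1 fit.

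The call for Ptprb in WT was lost without WT f at 4 weeks (adjusted p = 0.0682), without WT f1 (0.0581) or m2 (0.0529) at 2 weeks, and in limma voom (0.240), where the median gene moved by 1.04 and Ptprb by 0.88. In KO it was lost without filter on low counts (0.0564), in limma voom (0.331), and when any of 8 libraries was left out (0.0501 to 0.0972): WT f, f3 and m2 and KO m1 and m2 at 4 weeks, and KO f1, f4 and m3 at 2 weeks.

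For Tek and Tie1 the change over time did not pass the threshold in edgeR. Tek had 1.06 in WT (SE 0.550, adjusted p = 0.366) and 0.85 in KO (SE 0.596, adjusted p = 0.598). Tie1 had 0.37 in WT (SE 0.247, adjusted p = 0.558) and 0.59 in KO (SE 0.260, adjusted p = 0.230). For Angpt2, whose 4-week values entered its choice, the fitted values are 4.25 (SE 1.67) in WT and 2.52 (SE 1.65) in KO, without a test. The value for KO was 4.08 without KO f1 at 2 weeks, 1.95 without KO m2 at 2 weeks and 6.05 in limma voom with quality weights. All 5 WT libraries at 4 weeks, at 28.5 CPM or more, had more Angpt2 than any WT library at 2 weeks, at 3.34 CPM or less.

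The receptors were compared pair by pair across the 8 libraries at 2 weeks. Tek and Tie1 had a Pearson r of 0.569 (exact permutation p = 0.134, adjusted over 3 pairs 0.403) and a Spearman rho of 0.5 (p = 0.216), and r was 0.438 without the 2 libraries farthest from the median of Tek. Tek and Ptprb had r = 0.327 (exact permutation p = 0.418) and rho = 0.286 (p = 0.501), and r was −0.290 without 2 libraries. Tie1 and Ptprb had r = 0.255 (exact permutation p = 0.559) and rho = 0.452 (p = 0.267), and r was 0.584 without 2 libraries. None of the 3 pairs passed a test. At 4 weeks the libraries fall into the sets above, of 5 and 4 libraries, and neither is large enough for a correlation of its own, so no relation among the receptors was tested there. Over all 9 libraries, as a description that includes the difference between the sets, Tek had r = 0.893 with Tie1 and 0.958 with Ptprb.

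The genes whose log2 CPM was most like that of Angpt2 over the 9 libraries at 4 weeks, among 6912 genes, were Letmd1 (r = 0.922), Aida (0.917), Pex3 (0.915), Trp53rka (0.899) and Asb8 (0.898). Over the 8 libraries at 2 weeks the same genes had r of 0.0362, −0.0489, 0.330, −0.00938 and 0.365; the genes were ranked on the 4-week libraries, so lower values at 2 weeks follow from that choice. The genes most like Tek at 4 weeks were Rgs3 (0.989), Mtmr6 (0.988), Dctn1 (0.987), Ece1 (0.985) and Gbp4 (0.984), with r at 2 weeks of −0.533, 0.180, 0.354, 0.130 and −0.201. Kdr had r with Tek of 0.941 at 4 weeks and 0.824 at 2 weeks. These values share libraries and, for Tek, the sets, and are given without p. The 4-week values for Angpt2 also hold the difference between genotypes on which Angpt2 was chosen. Each of the genes most like it had a higher mean in KO at 4 weeks, with Letmd1 at 13.1 CPM for WT and 23.6 for KO.

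Other genes of the pathway came from 7 lists of 80 genes in all, chosen with earlier results on these libraries known. At 2 weeks 62 of them entered the fit, 23 with higher values in KO, and 0 passed the adjusted threshold in edgeR, where 0 of all 10477 genes did; their median log2 fold change was −0.21, against −0.06 over all genes. At 4 weeks 72 entered, 30 with higher values in KO, 0 passed, and the median was −0.10 against 0.01.

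Among ligands and related secreted proteins, 3 of 8 entered the 4-week fit. Angpt4, the third angiopoietin, had counts in WT f (0.504 CPM), KO f2 (1.47 CPM) and KO m1 (2.28 CPM) at 4 weeks and in no library at 2 weeks. Svep1, a secreted protein that binds Tie1, had 0 counts in 16 of 17 libraries and 0.0275 CPM in KO m3 at 2 weeks. Angptl4, a lipoprotein lipase inhibitor, was at 115 ± 38.5 CPM for WT (n = 5, SD) against 113 ± 68.9 for KO (n = 4, SD) at 4 weeks. At 2 weeks it was at 45.5 ± 37.0 CPM for WT (n = 4, SD) against 21.1 ± 13.4 for KO (n = 4, SD), with a fitted log2 difference of −1.03 (SE 0.864) and an adjusted p of 1 in edgeR. Of the 8 genes 2 entered the 2-week fit, both with a negative log2 fold change (median −2.96, against −0.06 over all genes), and neither passed the test.

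Among proteins that shed the receptors or partner VE-PTP, 6 of 8 entered the 2-week fit and 5 had lower values in KO, with a list median of −0.16. Jup, or plakoglobin, which binds VE-cadherin, was at 725 ± 124 CPM for WT against 553 ± 147 for KO (2 weeks, SD, n = 4 each). Its log2 fold change was −0.39 (SE 0.154, edgeR adjusted p = 1). At 4 weeks Adam17, a sheddase that releases the Tie1 ectodomain, had −0.61 (SE 0.290) and Adam10 −0.57 (SE 0.599).

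Of the Tie2 adaptors and signalling enzymes, 19 of 21 entered the 4-week fit, 9 with higher and 10 with lower values in KO and a median of −0.03. Sos1, an exchange factor for RAS, had −0.74 (SE 0.266; at 2 weeks 4.20, SE 2.61) and Ptpn11, the phosphatase SHP2, 0.42 (SE 0.273). Of the FOXO factors and target genes, 15 of 16 entered, 7 higher and 8 lower, with a median of −0.09. Foxo1, which drives Angpt2 when AKT is inactive, was at 16.7 to 49.8 CPM in WT against 26.8 to 41.3 in KO at 4 weeks, and the genotypes overlapped. Cdkn1b, a FOXO target that halts the cell cycle, had 0.84 (SE 0.419) and Bcl2l11 −0.73 (SE 0.595).

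The Weibel-Palade bodies that store angiopoietin 2 had 12 of 12 listed genes in the 4-week fit, 5 with higher and 7 with lower values in KO and a median of −0.05. Vwf, their main cargo, was at 147 to 195 CPM in WT against 161 to 232 in KO 4 weeks after tamoxifen; Selp was at 21.2 to 146 in WT against 31.8 to 108 in KO. Both overlapped between the genotypes. Angpt2 did not, but it was chosen on this contrast. Of all 15209 genes fitted at 4 weeks, 0.664% had every KO library above every WT library, so nothing is read from this comparison. Plat, a plasminogen activator of these bodies, had 0.50 (SE 0.204) at 4 weeks.

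Among the integrins that bind angiopoietins, Itgb5 had −1.83 (SE 16.6) at 2 weeks and 1.66 (SE 0.795) at 4 weeks. Its means at 2 weeks were 3.52 CPM for WT and 7.11 for KO, against the sign of the fitted value, so no direction is read there. Itga5 had 1.26 (SE 1.84) at 2 weeks and −0.56 (SE 0.263) at 4 weeks. Among the transcription factors known to act on Angpt2 or Tek, all 10 entered both fits, with medians of −0.16 at 2 weeks and −0.19 at 4 weeks. Ets1 was at 391 ± 128 CPM for WT against 259 ± 103 for KO (2 weeks, SD, n = 4 each; log2 fold change −0.65, SE 0.218, edgeR adjusted p = 1). At 4 weeks Arnt, the partner of hypoxia-inducible factors, had −0.65 (SE 0.444) and Elf1 −0.50 (SE 0.334).

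Over time, 9 of 70 pathway genes passed the adjusted threshold in WT, 8 higher and 1 lower at 4 weeks, and 6 of 70 in KO, 4 higher and 2 lower, in edgeR. Over all genes 8.04% passed in WT and 7.56% in KO, so in KO the pathway genes passed at about the share of all genes. In WT they passed at a higher share, which was not tested, and the lists were chosen with earlier results known. Mmp14, Pik3r2 and Cited2 are among those that passed in WT, from levels near 0 at 2 weeks. Cdh5, which encodes VE-cadherin, rose from 259 ± 54.9 (SD, n = 4) to 676 ± 61.4 CPM (SD, n = 5) in WT (1.11, SE 0.143, edgeR adjusted p = 0.000354) and also rose in KO (1.27, SE 0.152, edgeR adjusted p = 0.000230). Klf4, a flow-responsive factor, rose by 1.51 in WT (SE 0.353) and 2.16 in KO (SE 0.376), and Elk3 by 0.89 (SE 0.206) and 1.04 (SE 0.217). Mapk3, or ERK1, fell by 1.15 in WT (SE 0.184) and fell by 1.17 in KO (SE 0.203). Ephb4 (1.30, SE 0.263) and Itgb1 (0.91, SE 0.172) passed in WT, and Klf2 (1.01, SE 0.281) and Rab3d, which fell by 1.45 (SE 0.409), passed in KO; whether these changes differ between the genotypes is not shown by that. Mmp14, Pik3r2 and Cited2 also passed in WT, from means of 0.0638, 0.00612 and 0.0255 CPM at 2 weeks, near or below the level of 3 counts, to 20.1, 13.9 and 5.65 CPM at 4 weeks.

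Cell type markers were read beside these results. Endothelial markers were high in all 17 libraries, at summed levels including Eng of 4455 to 5803 CPM in WT against 3314 to 4077 in KO at the first time point, with 11626 to 13512 in WT against 9221 to 10786 in KO at 4 weeks. The 7 tip or activated endothelium markers summed to 442 to 708 CPM in WT against 565 to 655 in KO at 4 weeks, overlapping. The direction differed among them: Kcne3 averaged 11.4 CPM for WT and 7.93 for KO, Nid2 108 and 81.7, Dll4 293 and 298, Esm1 40.4 and 44.8, Pgf 9.84 and 22.8, and Cxcr4 3.41 and 4.24. Apln was at 72.0 ± 29.1 CPM for WT (n = 5, SD) against 156 ± 44.6 for KO (n = 4, SD). Megakaryocyte and platelet markers summed to 11.5 to 39.0 CPM in WT against 17.4 to 40.3 in KO. Mural cell markers summed to 785 to 3123 CPM in WT against 846 to 2255 in KO, with Rgs5 at 326 to 2336 and 284 to 1615 CPM. Erythroid markers were higher in KO at 4 weeks than in WT in most libraries, at 611 to 2893 against 165 to 1272 CPM; their part in the difference of Angpt2 was not tested.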

How the data were processed

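Endothelial cells sorted from bone marrow were profiled by Smart-seq2, per the labels' protocols. The deposited files give whole-number read counts per Ensembl gene, made by the authors with cutadapt, STAR and HTSeq 0.6.1p1 on GRCm38 (mm10), per the submitters' processing notes. Reads without molecular identifiers are not independent molecules, so limits cover counting error only.

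Symbols and exon lengths came from GENCODE M21. Genes kept by filterByExpr were fitted in edgeR 4.0.16 (R 4.3.3) with TMM scaling, robust glmQLFit and glmQLFTest, with sex and genotype at each time point, and with group means and sex over all 17 libraries for the time contrasts. P-values were adjusted by Benjamini-Hochberg over all genes of a fit, threshold 0.05, and SE is the log2 fold change over the root of F. Log2 CPM used a prior count of 2. Single values at 2 weeks were tested by two-sided exact permutation.

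Members and lists were chosen with earlier results of these data known. Named are the members, Eng, the 5 genes most like Angpt2 and Tek (mean log2 CPM of at least 4), pathway genes past the threshold, and otherwise the 2 with the smallest p at 2 weeks and the 2 with the largest change at 4 weeks per list (mean CPM of at least 10); other marker and pathway genes named (Kdr, Apln, Esm1, Foxo1, Vwf, Selp, Lepr, Cxcl12, Rgs5, Angpt4, Svep1) were chosen after their values were seen. 1 gene that the rule names is not reported here. Alternatives were DESeq2 1.42.0, limma 3.58.1 voom, other scalings and filters, no sex term, a joint fit, a block and leaving out each library.

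At 2 weeks replicate numbers did not pair the libraries: deviations of same-numbered libraries correlated at −0.0283 to 0.0310. In the males at 4 weeks they correlated at 0.0525 to 0.515. There m1 (r = 0.297) and m3 (r = 0.515) were the best match of their namesake in the other genotype, and m2 (0.0525) was not. Same-numbered males also fell in the same set, A for m1 and m2 and B for m3. With the replicate number as a term in these males, the SE of Tek was 0.258, against 0.618 without it. Whether the numbers mark pairs at 4 weeks was not tested.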

Additional observations from a re-analysis of the deposited data

Results flagged for a closer look

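Angpt2 stood out in 2 libraries, each the lowest of its WT group, by the gap to the nearest other library relative to the range of the group. In WT m2 at 4 weeks it was at 28.5 CPM, against 59.5 to 62.0 CPM in the other 4 libraries; the gap was 0.924 of the range, above the critical value for 5 samples. In WT f1 at 2 weeks it had 0 CPM, against 2.79 to 3.34 CPM in the other 3; the gap was 0.836 of the range, above that for 4. Such a gap appears by chance in about 1 group in 20, and 21 groups were checked, so about 1 is what chance gives. Angpt2 at 4 weeks was chosen from these values, so its gap is a description.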

How the results depend on the processing

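The KO direction of Tie1 and Tek held at 2 and 4 weeks under every alternative run, as did that of Angpt2 at 4 weeks, where its log2 fold change ran from 1.29 (without WT m2) to 1.74 (without KO f2) when each library was left out and from 1.30 to 1.80 otherwise. At 2 weeks Angpt2 ran from 0.45 (without KO f1) to 3.96 (without KO m2), was 0.10 in limma voom, and reversed with the replicate block, which took the replicate number as a term (−0.18); that block changed no other call of the members. On mean log2 CPM, leaving out a library gave −0.52 to 2.88 for Angpt2 and −0.0049 to 0.54 for Ptprb to Tek, and Ptprb relative to the 7 endothelial markers, a scale added later, reversed to 0.055. Tie1 at 2 weeks stayed at −0.54 or lower when each library was left out.

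Counts of genes called moved more. At 2 weeks edgeR called 0, also when each library was left out (0 to 0), DESeq2 149, limma voom 12 and the joint fit 33. At 4 weeks edgeR called 0 (0 to 0 with a library left out) and DESeq2 17. For time in WT the count was 1086: 580 without a filter, 639 with at least 10 counts in every library, 2090 in DESeq2, and 520 to 1398 with a library left out. In KO it was 1022: 567, 626, 2144, and 604 to 1300. For the difference of the KO effect it was 14: 6, 0 and 929 likewise, 8 in limma voom, and 7 to 52. The cause was not tested. The median gene over time ran from 0.00251 (at least 10 counts) to 1.04 (limma voom) in WT. At these depths a count of 0 allows 0.0734 to 0.147 CPM of Angpt1.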
